A study of Mus musculus with 22 samples.

Results

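The IκB proteins and the feedback regulators of NF-κB were followed in a murine leukemia in which 1 of them, Nfkbie, had been edited. The set holds 10 genes, taken by name: the typical IκB genes Nfkbie, Nfkbia and Nfkbib, the atypical IκB genes Nfkbid, Nfkbiz and Bcl3, and the feedback regulators Tnfaip3, Tnip1, Traf1 and Birc3. The deposited transcripts that GENCODE assigns to each were summed, and all 10 of them were among the 17023 genes of the table and passed the filter on low counts in every comparison. The question put to them was whether another inhibitor was higher where Nfkbie had been disrupted.

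Typical IκB proteins hold NF-κB dimers in the cytoplasm until the IκB kinase marks them for degradation. Of their genes, Nfkbia and Nfkbie are themselves induced by NF-κB, which closes a negative feedback loop. Atypical IκB proteins act mostly in the nucleus, where they bind NF-κB on DNA and can raise or lower transcription. In chronic lymphocytic leukemia (CLL), a B-cell malignancy that depends on signals from its tissue surroundings, NF-κB is a main route of those signals, and NFKBIE, which encodes IκBε, is recurrently mutated.

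The cells were of the line TCL1-355 TKO, derived from the Eμ-TCL1 mouse, in which the TCL1 transgene is driven in B cells. The line had earlier been given loss-of-function lesions of tumor suppressor genes, Cdkn2a and Cdkn2b among them, which all groups shared. NFKBIE-ko cells had received a Cas9 ribonucleoprotein with a cr-RNA against Nfkbie, whereas NFKBIE-wt cells went through a mock edit. The populations were each grown on for 21 days in a mouse of their own and then injected intraperitoneally into 5 C57BL/6 recipients, and cells were recovered on day 10 from the spleen and from the peritoneal cavity (PC), with 4 samples sequenced for each genotype and compartment. Cells from spleens of 3 mice were also cultured separately for 2 weeks before RNA isolation, giving 3 NFKBIE-ko and 3 NFKBIE-wt samples in vitro. Mice used for transfer of the edited cells were aged 2 to 3 months. The recipients of a genotype all received cells from the same propagation, so the p-values measure the spread between recipients or cultures, and genotype cannot be told apart from the history of the propagated population. The spleen and PC samples were not purified. In such bulk samples, fewer cells of a type and less RNA per cell cannot be told apart.

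The 22 libraries held between 24036763 and 26581304 estimated counts. Leukemic B-cell markers (8 genes, among them Cd79a and Pax5) summed to between 1450 and 3500 CPM, a count scaled to the size of its library, in all libraries, with Fcer2a near 0. A pair of libraries stood apart from their labels. Over the 1000 most variable genes, the library labelled NFKBIE-wt spleen replicate 4 had a median correlation of 0.43 with the other NFKBIE-wt spleens, of 0.80 with the NFKBIE-wt cultures and of 0.83 with the NFKBIE-ko cultures, the highest of all groups, and its 8 erythroid markers summed to 6.73 CPM against 313 to 2120 in the other 3. The library labelled NFKBIE-wt vitro replicate 3 had a median correlation of 0.34 with its own group and of 0.84 with the NFKBIE-wt spleens, and its erythroid markers summed to 1500 CPM against 11.8 and 20.7 in the other 2. The remaining 20 libraries correlated best with their own compartment. Results are given as labelled and without these libraries.

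The cr-RNA matched the genome once, in Nfkbie (ENSMUSG00000023947, GRCm39, chr17:45866585-45874661, plus strand). It is shown because every NFKBIE-ko library carries the edit made with it, with the adjacent PAM in capitals.
cr-RNA and PAM: agtgattcacgaagccccgtCGG
The target lies at chr17:45869436-45869455 in coding exon 2, and Cas9 is placed to cut between bases 45869452 and 45869453, after base 32 of the exon. Exon 2 spans chr17:45869421-45869523 and is shown whole, with target and PAM in capitals, since it is shared by all 3 Nfkbie transcripts of the table.
Nfkbie exon 2: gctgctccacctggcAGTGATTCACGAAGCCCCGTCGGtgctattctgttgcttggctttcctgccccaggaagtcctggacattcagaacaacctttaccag
As every counted transcript holds the target, the gene's count does not separate edited from unedited RNA.

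Members of the set are known as NF-κB targets, so their promoters were searched on both strands for the NF-κB consensus. The search took the 250 bases before the start of each gene's annotated canonical transcript. It was found in 3 of the 10 members, and in 1648 of 21593 protein-coding genes (7.63%). Other annotated starts were not searched, and the canonical transcript of Traf1 held 6.08% of that gene's counts. The matches are shown in capitals within 30 bases of GRCm39, read along each gene's strand.
Nfkbie, chr17:45866510-45866539: gcagcaaacaGGGGGATTCCggaggggcgg
Nfkbia, chr12:55539442-55539471: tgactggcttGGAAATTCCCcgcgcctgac
Tnfaip3, chr10:18891264-18891293: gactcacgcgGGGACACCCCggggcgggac
The match lay 86 bases before the start in Nfkbie, 29 in Nfkbia and 97 in Tnfaip3, where the same bases matched on both strands. These are matches of letters in the reference, and no binding was measured.

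Nfkbie RNA was not lost in the NFKBIE-ko cells. By immunoblot, the study reported that IκBε protein was almost absent from its NFKBIE-ko lines, and RNA counts do not measure that protein. In the spleen, Nfkbie was at 72.7, 70.9, 76.9 and 124 CPM in NFKBIE-wt replicates 1 to 4 and at 120, 54.2, 109 and 112 CPM in the NFKBIE-ko samples. The highest NFKBIE-wt value came from the library labelled replicate 4, and the genotypes overlapped. The log2 fold change was 0.19 (SE 0.27, adjusted p = 0.73 by the quasi-likelihood test of edgeR, Benjamini-Hochberg adjusted over all genes tested, as for every adjusted p of a gene below), and 0.43 (SE 0.24, adjusted p = 0.294) without that library.

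In the PC, Nfkbie was lower in the NFKBIE-ko samples. It was at 67.3, 81.4, 76.6 and 91.2 CPM in NFKBIE-wt and at 64.9, 47.2, 55.9 and 47.5 CPM in NFKBIE-ko samples, so that every NFKBIE-ko sample was below every NFKBIE-wt sample. It fell by 0.56 on the log2 scale (SE 0.12, edgeR adjusted p = 0.00377). In the fit of all 22 libraries, whose common biological coefficient of variation was 0.27 against 0.148 in the PC alone, the value was -0.55 and the adjusted p 0.134.

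In vitro, Nfkbie was at 117, 141 and 54.3 CPM in NFKBIE-wt cultures and at 56.0, 59.9 and 48.2 CPM in NFKBIE-ko cultures. The overlap came from the library labelled replicate 3 alone. The log2 fold change was -0.93 (SE 0.33, edgeR adjusted p = 0.517) and, without that library, -1.23 (SE 0.13, 95% interval -1.56 to -0.90), where the unadjusted edgeR p was 0.000178 and the adjusted p 0.0925. Neither value passed the threshold of 0.05.

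Whether the genotype effect on Nfkbie differed between compartments depended on the same libraries. In a joint fit of the 22 libraries, the spleen effect exceeded the PC effect by 0.75 on the log2 scale (SE 0.37, edgeR adjusted p = 0.257) and the culture effect by 1.13 (SE 0.40, adjusted p = 0.161). Without both libraries these differences were 1.00 (SE 0.27, adjusted p = 0.0293) and 1.67 (SE 0.31, adjusted p = 0.0142), and both passed. The PC minus in vitro difference was 0.37 (SE 0.40, adjusted p = 0.69) with all libraries and 0.67 (SE 0.30, adjusted p = 0.207) without both.

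The genotypes differed in which Nfkbie transcript the counts fell on. The table holds 3: the canonical ENSMUST00000024742 (2458 bases, 6 exons, 69.7% of the gene's counts over all libraries), ENSMUST00000233929 (2387 bases, 12.9%), which lacks 68 bases at the start of the last exon, and ENSMUST00000233379 (3006 bases, 5 exons, 17.4%). The last is annotated as a retained intron and keeps the 610 bases of intron 2, chr17:45869524-45870133, which begins right after the targeted exon.

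**Figure D1:**
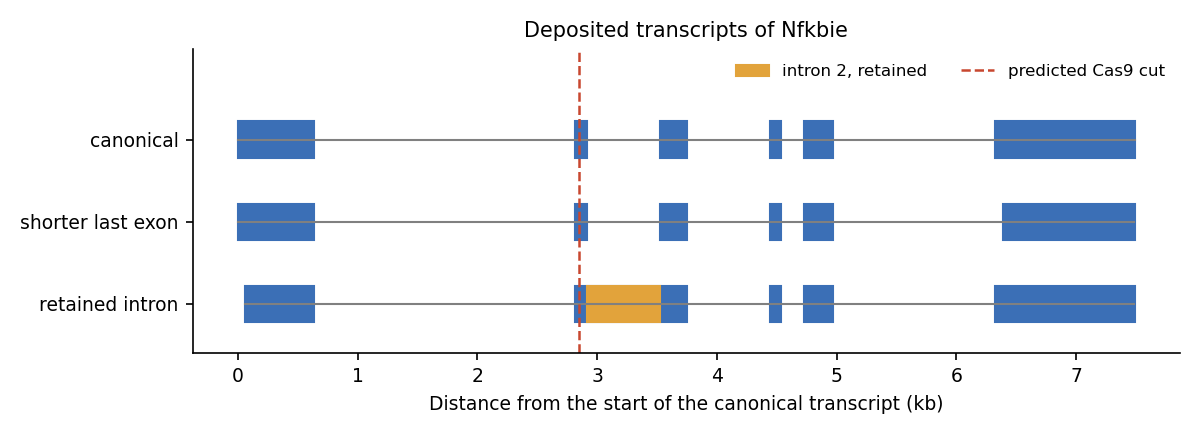
Map of the 3 Nfkbie transcripts of the table, drawn to scale as distance in kb from the start of the canonical transcript; boxes are exons, the orange box is the retained intron 2 and the dashed line the predicted Cas9 cut. The cut falls in exon 2 of all 3, and the 610 retained bases follow that exon.

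In the spleen, the retained-intron transcript held 8.58%, 15.1%, 13.0% and 8.60% of the Nfkbie counts in NFKBIE-wt samples and 25.0%, 31.1%, 21.3% and 22.6% in NFKBIE-ko samples. The PC shares were 12.4%, 13.3%, 7.08% and 9.30% in NFKBIE-wt and 36.7%, 21.3%, 30.7% and 28.0% in NFKBIE-ko samples. In vitro they were 9.96%, 8.32% and 15.4% against 22.6%, 24.5% and 29.8%. The genotypes did not overlap in any compartment, and the libraries labelled NFKBIE-wt spleen replicate 4 and NFKBIE-wt vitro replicate 3 fell with the other NFKBIE-wt libraries.

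The difference of the means was 13.7 points in the spleen (25.0% ± 4.33 against 11.3% ± 3.28, SD, n = 4 each, exact two-sided permutation p = 0.0286, adjusted over the 3 compartments 0.0429). It was 18.7 points in the PC (29.2% ± 6.39 against 10.5% ± 2.86, n = 4 each, exact p = 0.0286, adjusted 0.0429), and 0.0286 is the smallest p that 4 against 4 samples allow. In vitro it was 14.4 points (25.6% ± 3.72 against 11.2% ± 3.71, n = 3 each, exact p = 0.1, the smallest p that 3 against 3 allow, adjusted 0.1). With any 1 spleen or PC library left out, the smallest exact p the design allows is 0.0571, which each of these 16 comparisons reached. Salmon divides reads between transcripts by a model of unedited sequence, and how insertions or deletions at the target bear on this division was not tested.

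**Figure D2:**
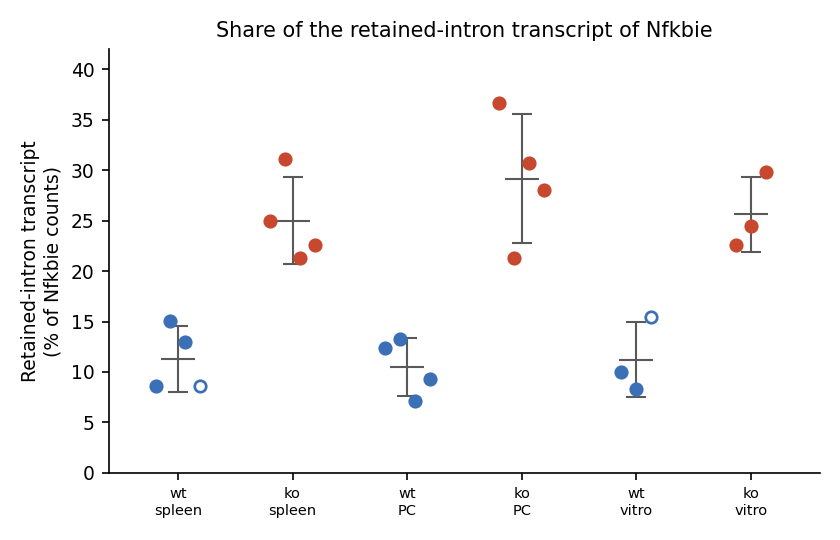
Share of Nfkbie counts on the retained-intron transcript, in percent, 1 point per library, with mean and SD by group; open points mark the libraries labelled NFKBIE-wt spleen replicate 4 and NFKBIE-wt vitro replicate 3. All NFKBIE-ko points lie at or above 21.3% and all NFKBIE-wt points at or below 15.4%.

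As a level, the retained-intron transcript averaged 23.8 ± 5.48 CPM over the NFKBIE-ko spleens, against 9.39 ± 2.13 CPM over the NFKBIE-wt spleens (SD, n = 4 each), a log2 fold change of 1.39 (SE 0.26, edgeR adjusted p = 0.0797 over all transcripts, of which 0.354% passed). It did not pass in the PC either (log2 fold change 1.00, SE 0.30, adjusted p = 0.0645) or in vitro (0.40, SE 0.20, adjusted p = 0.863). Both coding transcripts fell in the PC, where 13.0% of the transcripts tested passed (in vitro 0 did by edgeR): ENSMUST00000024742 by 0.68 (SE 0.16, adjusted p = 0.0248) and ENSMUST00000233929 by 1.77 (SE 0.40, adjusted p = 0.0237) on the log2 scale. With the coding transcripts of each gene alone, the Nfkbie log2 fold change was -0.94 in the PC (SE 0.10, adjusted p = 7.74e-05), -0.05 in the spleen (adjusted p = 0.938) and -1.19 in vitro (adjusted p = 0.491). These fits of transcripts and of coding transcripts kept all libraries. The canonical transcript had 2697 counts in the library labelled NFKBIE-wt spleen replicate 4, against 992.8 to 1346 in the other NFKBIE-wt spleens. In the library labelled NFKBIE-wt vitro replicate 3 it had 835.6, against 2383 and 3096. Among the other members, retained-intron transcripts held at most 11.8% of the counts in any library, in Traf1, where the ranges of the genotypes overlapped (3.85% to 10.8% in NFKBIE-ko and 5.03% to 11.8% in NFKBIE-wt libraries).

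Nfkbia encodes IκBα, the fastest acting of the feedback inhibitors. In the spleen it was at 371, 555, 419 and 203 CPM in NFKBIE-wt and at 512, 491, 465 and 464 CPM in NFKBIE-ko samples. The lowest value was that of the library labelled replicate 4, and the genotypes overlapped (log2 fold change 0.32, SE 0.25, edgeR adjusted p = 0.493, and 0.11, adjusted p = 0.702, without it). In the PC it was at 415, 552, 358 and 397 against 388, 309, 330 and 339 CPM and fell by 0.34 (SE 0.13, adjusted p = 0.0471). This call was lost when any of NFKBIE-wt replicates 1, 2 and 4 or NFKBIE-ko replicates 2, 3 and 4 was left out, with log2 fold changes from -0.38 to -0.22 and adjusted p from 0.0524 to 0.122. In culture Nfkbia was at 190, 193 and 380 CPM against 216, 220 and 222 CPM, and its log2 fold change turned from -0.23 (adjusted p = 0.744) to 0.20 (SE 0.06, adjusted p = 0.353) without the library labelled replicate 3.

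Nfkbib encodes IκBβ, a slower inhibitor. It was the typical IκB that rose in the PC, from 32.0, 35.3, 32.8 and 36.4 CPM in NFKBIE-wt to 44.6, 43.6, 43.1 and 42.3 CPM in NFKBIE-ko samples, with no overlap and a log2 fold change of 0.34 (SE 0.07, edgeR adjusted p = 0.00208). In the spleen it was at 53.7, 50.7, 43.5 and 39.5 CPM against 58.5, 64.3, 76.6 and 65.0 CPM. The spleen groups did not overlap either, but the log2 fold change of 0.49 (SE 0.13) had an adjusted p of 0.066, and of 0.0719 without the library labelled replicate 4. In culture it was at 37.6, 45.1 and 50.5 CPM against 40.2, 38.2 and 42.8 CPM, with a log2 fold change of -0.14 and, without the library labelled replicate 3, of -0.03 (95% interval -0.30 to 0.25). Nfkbib overlaps Sirt2 and Ccer2 on the opposite strand. Nfkbia, Bcl3, Tnfaip3, Tnip1, Traf1 and Birc3 also overlap genes on the other strand, and since strandedness of the quantification is not given in the sources used here, reads of such partners cannot be told apart where they overlap.

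To compare the typical IκB genes with each other, their levels were put on the TPM scale, which divides by transcript length. Nfkbia made up 58.4% to 86.0% of the sum of the 3 in every library. Nfkbie made up 23.8%, 26.4% and 7.18% in NFKBIE-wt cultures and 11.6%, 12.1% and 9.63% in NFKBIE-ko cultures, whereas in the PC it made up 7.83% to 11.5% in NFKBIE-wt and 6.85% to 7.96% in NFKBIE-ko samples. The library labelled NFKBIE-wt spleen replicate 4 was at 24%, apart from the 6.77% to 9.68% of the other NFKBIE-wt spleens and the 5.51% to 11.3% of the NFKBIE-ko spleens.

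The joint level of the remaining typical inhibitors, Nfkbia plus Nfkbib, did not separate the genotypes in any compartment with all libraries. In the PC, where Nfkbie fell, it was 479, 691, 470 and 429 TPM in NFKBIE-wt and 511, 391, 417 and 412 TPM in NFKBIE-ko samples. In vitro it was 291, 289 and 525 TPM against 318, 315 and 331 TPM. Without the library labelled replicate 3, the NFKBIE-ko cultures lay above both NFKBIE-wt cultures in this sum, and below both in the sum of all 3 typical IκB genes (359 to 366 against 382 and 393 TPM). In the spleen Nfkbia plus Nfkbib was 490, 627, 600 and 304 TPM against 675, 653, 595 and 621 TPM. These sums were not tested. In NFKBIE-ko samples the Nfkbie part of such sums and shares includes RNA of the edited gene, so it does not measure IκBε protein.

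**Figure D3:**
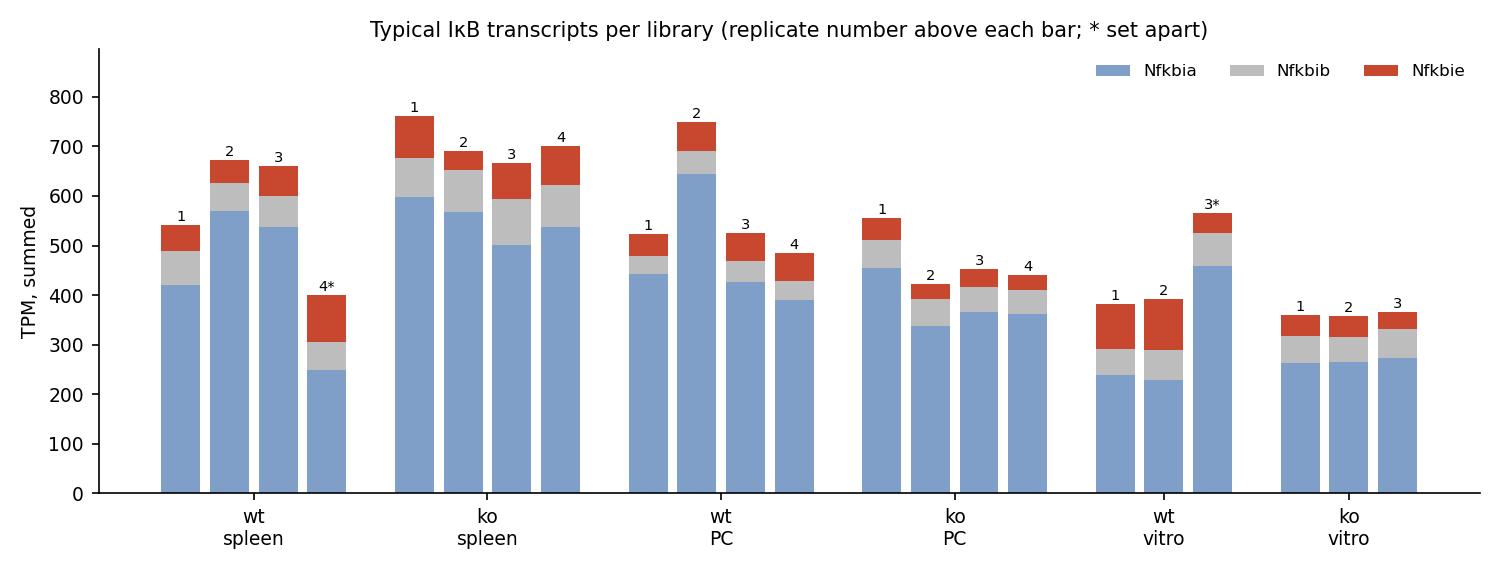
TPM of the 3 typical IκB genes stacked by library for the 6 groups; an asterisk marks the libraries labelled NFKBIE-wt spleen replicate 4 and NFKBIE-wt vitro replicate 3. Nfkbia is the largest of the typical IκB genes in every library (58.4% to 86.0% of their sum).

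Nfkbid encodes the nuclear IκBNS. In the spleen it rose from 73.0, 59.0, 58.6 and 71.6 CPM in NFKBIE-wt to 116, 81.7, 106 and 146 CPM in NFKBIE-ko samples, without overlap. The log2 fold change was 0.77 (SE 0.18, edgeR adjusted p = 0.0382), and 0.83 (SE 0.19, adjusted p = 0.0255) without the library labelled replicate 4. By edgeR in the spleen libraries alone it was the only member to pass with all of them (1 of 10, where 5.43% of all genes tested passed), whereas DESeq2 called 4 members (Nfkbib, Nfkbid, Tnfaip3 and Traf1) and the edgeR fit of all 22 samples 2 others (Nfkbib and Tnip1). The call was lost without any 1 of NFKBIE-wt replicates 1, 2 and 3 and NFKBIE-ko replicates 1, 3 and 4 (log2 fold changes 0.63 to 0.83, adjusted p 0.0786 to 0.116). In the PC Nfkbid was at 33.5, 48.4, 52.3 and 52.9 CPM against 56.4, 27.9, 35.6 and 31.8 CPM (log2 fold change -0.31, adjusted p = 0.32). NFKBIE-ko replicate 1 was the highest of all PC samples, and without it the log2 fold change was -0.57 (adjusted p = 0.0187). In vitro it was at 50.1, 112 and 43.2 CPM against 69.5, 76.1 and 65.0 CPM (log2 fold change 0.03). Without the library labelled replicate 3 the value was -0.20 (SE 0.34, adjusted p = 0.863), and with that library kept but NFKBIE-wt replicate 2 left out it was 0.59 (adjusted p = 0.0441).

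Nfkbiz encodes IκBζ, a nuclear coactivator of a subset of NF-κB targets. Its log2 fold changes were below 0 in every compartment, and none passed with all libraries. Spleen samples were at 125, 144, 215 and 51.5 CPM in NFKBIE-wt and at 109, 81.3, 76.4 and 70.9 CPM in NFKBIE-ko. The low NFKBIE-wt value was that of the library labelled replicate 4, without which the groups did not overlap and the log2 fold change moved from -0.67 (SE 0.36, edgeR adjusted p = 0.3) to -0.93 (SE 0.21, adjusted p = 0.0232). In the PC Nfkbiz was at 112, 190, 75.2 and 73.2 CPM against 117, 39.1, 54.1 and 53.3 CPM (log2 fold change -0.78, SE 0.45, adjusted p = 0.204). Again NFKBIE-ko replicate 1 lay apart from the other 3, and without it the value was -1.21 (adjusted p = 0.0449). The cultures were at 57.6, 44.6 and 139 CPM against 39.6, 38.7 and 41.9 CPM, with a log2 fold change of -1.02 (SE 0.43, adjusted p = 0.519) that shrank to -0.34 (adjusted p = 0.454) without the library labelled replicate 3.

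Bcl3, which encodes a nuclear partner of the p50 and p52 homodimers, did not pass in any compartment. It was at 16.1 to 32.5 CPM in NFKBIE-wt and 24.7 to 38.2 CPM in NFKBIE-ko spleens (log2 fold change 0.28, edgeR adjusted p = 0.513), at 34.7 to 49.1 against 32.8 to 49.0 CPM in the PC (0.01, adjusted p = 0.974) and at 22.3 to 53.4 against 38.8 to 43.9 CPM in vitro (0.23).

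Tnfaip3 encodes a deubiquitinating and ubiquitin-editing enzyme that shuts off signaling to the IκB kinase. In the spleen it was at 128, 162, 127 and 47.9 CPM in NFKBIE-wt and at 262, 274, 192 and 221 CPM in NFKBIE-ko samples. Every NFKBIE-ko spleen was above every NFKBIE-wt spleen, with the lowest value in the library labelled replicate 4. The log2 fold change of 1.03 (SE 0.31) had an edgeR adjusted p of 0.0962, and without that library it was smaller and passed (0.77, SE 0.16, adjusted p = 0.0148). In the PC Tnfaip3 was at 56.5, 96.3, 81.9 and 67.3 CPM against 156, 92.8, 93.4 and 90.9 CPM, with a log2 fold change of 0.51 (SE 0.22, adjusted p = 0.0907) that passed without NFKBIE-wt replicate 2 (0.64, adjusted p = 0.0468). In culture it was at 43.6, 54.1 and 154 CPM against 58.4, 58.9 and 61.5 CPM, and its log2 fold change turned from -0.51 (adjusted p = 0.661) to 0.29 (adjusted p = 0.489) without the library labelled replicate 3.

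Tnip1 encodes a ubiquitin-binding partner of Tnfaip3. It rose in the PC, from 51.5, 53.1, 50.5 and 45.8 CPM to 67.1, 66.8, 62.9 and 61.9 CPM, without overlap (log2 fold change 0.35, SE 0.06, edgeR adjusted p = 0.00138). The spleen value was of the same size with a wider error, at 62.3, 45.2, 56.8 and 59.8 CPM against 67.2, 92.8, 58.9 and 67.6 CPM (0.35, SE 0.16, adjusted p = 0.241). In vitro the samples lay between 62.7 and 73.9 CPM in NFKBIE-wt and between 66.0 and 69.4 CPM in NFKBIE-ko cultures (0.02).

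Traf1, an adaptor of the TNF receptor family and a standard readout of NF-κB activity, had the lowest adjusted p among the members in the PC. There it rose from 29.7, 29.3, 26.0 and 30.5 CPM in NFKBIE-wt to 58.4, 44.7, 50.6 and 49.7 CPM in NFKBIE-ko samples, without overlap (log2 fold change 0.80, SE 0.09, edgeR adjusted p = 8.37e-05). The transcripts ENSMUST00000028234, ENSMUST00000113064 and ENSMUST00000129131 each rose, by 0.88, 0.98 and 0.66 on the log2 scale (adjusted p = 0.0307, 0.00518 and 0.0476 over all transcripts). In the spleen it was at 23.3, 24.2, 26.3 and 38.6 CPM against 39.5, 37.2, 43.3 and 44.6 CPM. Only the library labelled replicate 4 reached the NFKBIE-ko range, and without it the log2 fold change moved from 0.54 (SE 0.17, adjusted p = 0.108) to 0.74 (SE 0.12, adjusted p = 0.00578). In vitro Traf1 was at 40.1, 52.1 and 20.6 CPM against 60.6, 57.7 and 52.6 CPM (0.60, SE 0.31, adjusted p = 0.538), and at 0.31 without the library labelled replicate 3.

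Birc3 encodes a ubiquitin ligase that restrains the non-canonical pathway. In the spleen it was at 138, 121, 147 and 131 CPM against 160, 165, 152 and 173 CPM, which did not overlap but did not pass (log2 fold change 0.27, SE 0.10, edgeR adjusted p = 0.138). In the PC it was at 145 to 163 CPM in NFKBIE-wt and 147 to 176 CPM in NFKBIE-ko samples (0.05, adjusted p = 0.596). The cultures were at 131, 185 and 140 CPM against 220, 220 and 198 CPM, with a log2 fold change of 0.48 (SE 0.15, adjusted p = 0.514). Without the library labelled replicate 3 it was 0.43 (SE 0.16, adjusted p = 0.486), and with that library kept but NFKBIE-wt replicate 2 left out it was 0.65 (adjusted p = 0.0317).

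**Figure D4:**
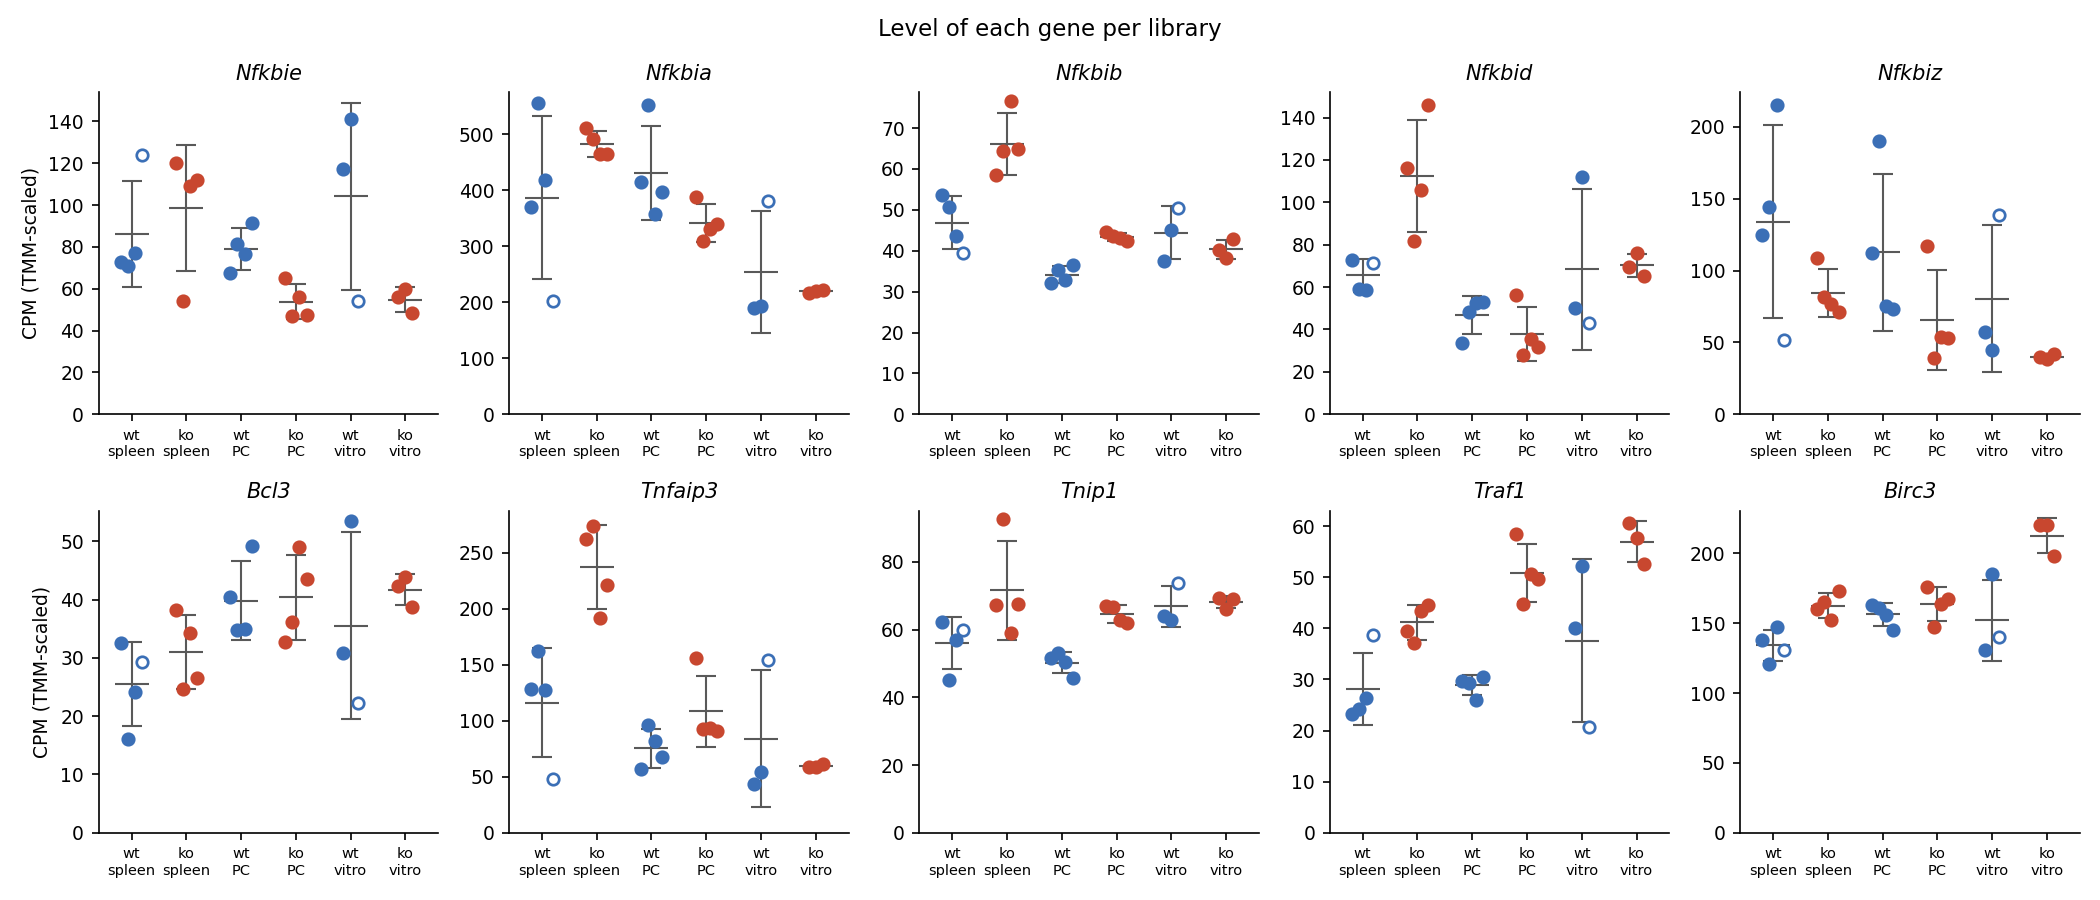
Level of each of the 10 genes in CPM, 1 point per library, by genotype and compartment, with mean and SD; open points are the libraries labelled NFKBIE-wt spleen replicate 4 and NFKBIE-wt vitro replicate 3. In the PC the NFKBIE-ko points of Nfkbib, Tnip1 and Traf1 all lie above, and those of Nfkbie all below, the NFKBIE-wt points.

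Counted over the set by edgeR within each compartment, the spleen had 1 member higher and 0 lower (2.30% and 3.13% of all genes), and 4 members whose genotypes did not overlap, all higher in NFKBIE-ko (16.3% of all genes tested did not overlap, 8.09% with NFKBIE-ko higher). Their median log2 fold change was 0.33, against -0.01 for all genes. Without the library labelled replicate 4, 3 members rose (Nfkbid, Tnfaip3 and Traf1) and Nfkbiz fell, where 12.2% of all genes passed.

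In the PC, 3 members rose (Nfkbib, Tnip1 and Traf1) and 2 fell (Nfkbie and Nfkbia), 5 of 10, where 43.4% of all genes tested passed (22.5% higher and 20.9% lower). The groups did not overlap in 4 members (41.6% of all genes), and the median log2 fold change was 0.03 against -0.01. Both shares of the set were thus near those of all genes.

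In vitro 0 of 10 members passed by edgeR, where 4 of 11722 genes (0.0341%) did. At an unadjusted p under 0.05 there were 2 members (9.59% of all genes), DESeq2 called 0, and 3 members did not overlap (19.7% of all genes). Without the library labelled replicate 3, 0 members passed (0.0759% of all genes). With all libraries, no member passed by edgeR with a log2 fold change beyond 1 within any compartment (of all genes, 2.99% did so in spleen samples, 13.5% in PC samples and 0.0341% in cultures). Tnfaip3 did so in the spleen by DESeq2 (1.03, adjusted p = 0.015), and Nfkbiz in the PC without NFKBIE-ko replicate 1, as given above.

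**Figure D5:**
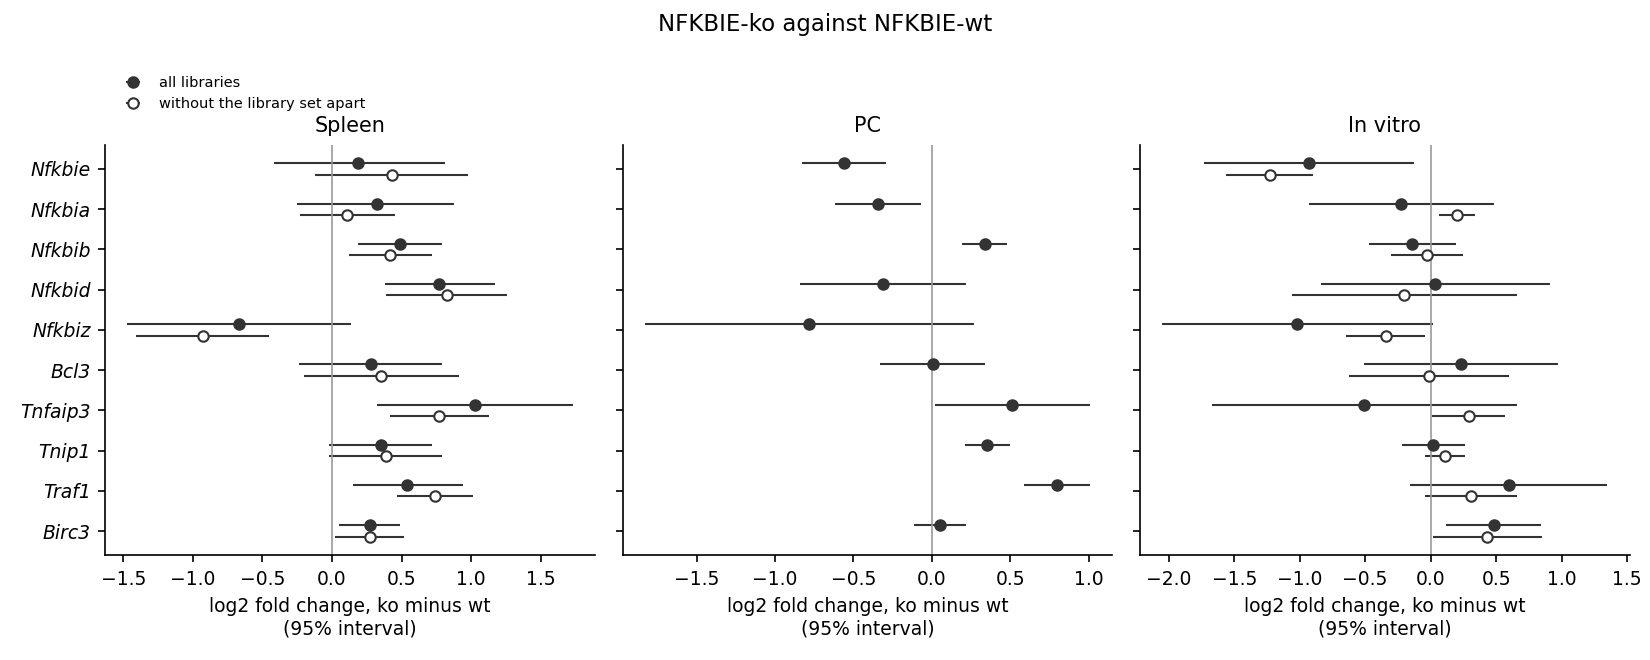
Log2 fold change of NFKBIE-ko over NFKBIE-wt for each gene and compartment with its 95% interval, with all libraries and, for spleen and in vitro, without the library that stood apart. In vitro, Nfkbia, Nfkbid, Bcl3 and Tnfaip3 change sign between the settings, and Nfkbie moves from -0.93 to -1.23.

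The difference of the genotype effect between compartments passed for 0 members in each of the 3 contrasts by edgeR, where 4.92% (spleen minus PC), 0.443% (spleen minus in vitro) and 4.80% (PC minus in vitro) of all genes passed. At an unadjusted p under 0.05 there were 1, 3 and 2 members (20.4%, 15.9% and 19.9% of all genes), and DESeq2 called 0, 1 and 1. The lowest adjusted p was that of Nfkbib, spleen minus in vitro (0.63 on the log2 scale, SE 0.16, adjusted p = 0.0706). Without both libraries Nfkbie was the member that passed, in the spleen minus PC and spleen minus in vitro contrasts given above (8.25% and 0.938% of all genes). None passed for PC minus in vitro (6.12% of all genes), with Traf1 at the lowest adjusted p (0.50, SE 0.16, adjusted p = 0.0786).

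Markers of host and leukemic cells also differed between the genotypes. In the PC, where 22.5% of all genes were higher and 20.9% lower, 11 of 12 myeloid markers were higher in NFKBIE-ko samples (summed level 3910 to 5730 CPM against 613 to 1800 CPM in NFKBIE-wt), as were 8 of 10 CD8+ cytotoxic and NK markers (47.5 to 85.9 against 16.5 to 42.7 CPM) and 8 of 12 T-cell markers (25.7 to 41.9 against 17.8 to 31.0 CPM, with 1 lower), whereas 5 of 7 granulocyte markers tested were lower (30.8 to 46.9 against 152 to 461 CPM). Among the granulocyte markers, only Ltf had a higher median in NFKBIE-ko than in NFKBIE-wt PC samples (19 against 7.31 CPM). Of the 7 leukemic B-cell markers tested in the PC, 5 were higher and 1 lower. Their sum did not overlap between the genotypes (3300 to 3500 CPM in NFKBIE-ko against 2680 to 2880 CPM in NFKBIE-wt samples). In the spleen, where 2.30% of all genes were higher, 4 of 9 CD8+ cytotoxic and NK markers tested were higher (58.9 to 138 against 1.32 to 15.6 CPM), as was 1 of 12 T-cell markers (59.9 to 100 against 25.4 to 64.4 CPM), and 1 of 7 leukemic B-cell markers was lower (summed 1450 to 1900 against 1660 to 2100 CPM). None of 11 myeloid markers passed by edgeR, with 6 at an unadjusted p under 0.05 (132 to 373 against 34.5 to 106 CPM). Among the T-cell markers, only Trac had a lower median in NFKBIE-ko than in NFKBIE-wt spleens (24.3 against 30.8 CPM). Without the library labelled replicate 4, 6 CD8+ cytotoxic and NK, 4 T-cell and 3 myeloid markers passed. Members of the set are expressed by these cells as well, and their part in the member values was not tested. In the cultures the myeloid sum was 72.4 to 111 CPM in NFKBIE-wt and 79.9 to 107 CPM in NFKBIE-ko samples. Its highest medians in NFKBIE-ko cultures were those of Ly6c2 (51.5 CPM) and Adgre1 (24 CPM), with C1qa, C1qb, C1qc and Fcgr1 at 0. The T-cell sum was 22.3 to 29.1 CPM in NFKBIE-ko cultures, with Cd3g at a median of 24 CPM and Cd8a at 0. The CD8+ cytotoxic and NK sum was 1.2 to 2.46 CPM in NFKBIE-ko cultures. In NFKBIE-wt cultures that sum was 16.8, 0.921 and 16.5 CPM in replicates 1 to 3, so that replicate 1 was as high as the library labelled replicate 3.

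Compartments were compared within each genotype in the fit of all 22 samples. Spleen and PC cells were taken from the same group of recipients, but the labels do not tie samples to mice, so this fit treats them as independent. Among NFKBIE-ko samples, 5 members differed between spleen and culture (30.3% of all genes passed). Nfkbia (log2 fold change 1.14, SE 0.26, edgeR adjusted p = 0.00418), Nfkbib (0.71, SE 0.11, adjusted p = 0.000475) and Tnfaip3 (1.99, SE 0.40, adjusted p = 0.00213) were higher in the spleen. Birc3 was lower there (-0.39, SE 0.10, adjusted p = 0.00881). Nfkbie was higher (0.85, SE 0.29, adjusted p = 0.0311), a call lost without any 1 of NFKBIE-ko spleen replicates 1, 3 and 4 or any of the NFKBIE-ko cultures (0.74 to 0.92, adjusted p 0.0654 to 0.11). The libraries that stood apart are in none of the NFKBIE-ko groups but share the estimate of the spread, and without both 8 members passed (39.0% of all genes), now with Nfkbid, Nfkbiz and Traf1.

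Between PC and spleen of NFKBIE-ko mice, 4 members differed, all lower in the PC (51.1% of all genes passed). They were Nfkbid (-1.57, SE 0.27, edgeR adjusted p = 7.78e-05), Tnfaip3 (-1.13, SE 0.35, adjusted p = 0.0118), Nfkbie (-0.87, SE 0.26, adjusted p = 0.00903) and Nfkbib (-0.61, SE 0.10, adjusted p = 8.19e-05). Without both libraries Nfkbia (-0.50, SE 0.13, adjusted p = 0.00216) and Traf1 (0.30, SE 0.10, adjusted p = 0.0154) passed as well (57.8% of all genes). Between PC and culture, Birc3 (-0.38, SE 0.10, adjusted p = 0.00484), Nfkbid (-0.89, SE 0.28, adjusted p = 0.014) and Nfkbia (0.64, SE 0.26, adjusted p = 0.0477) differed, 3 members where 48.0% of all genes passed, and Tnfaip3 joined them without both libraries (0.89, SE 0.20, adjusted p = 0.00106, 52.9% of all genes). The Nfkbid call was lost without NFKBIE-ko PC replicate 2 (-0.73, adjusted p = 0.0567) or 4 (-0.78, adjusted p = 0.0506), and the Nfkbia call without any 1 of 11 libraries (0.57 to 0.69, adjusted p 0.051 to 0.112), among them every NFKBIE-ko culture and NFKBIE-ko PC replicates 1, 3 and 4.

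Among NFKBIE-wt samples the comparison of spleen with culture turned on the libraries that stood apart. With all libraries 0 of 13537 genes passed by edgeR. An unadjusted p under 0.05 was found for 1059 genes (7.82%) and for 1 member, Nfkbia (0.60, SE 0.26). Without both libraries 6 members passed (26.2% of all genes). Nfkbia (1.26, SE 0.17, adjusted p = 3.43e-05), Nfkbiz (1.69, SE 0.43, adjusted p = 0.00774) and Tnfaip3 (1.54, SE 0.25, adjusted p = 0.000189) were then higher in the spleen, and Nfkbie (-0.78, SE 0.23, adjusted p = 0.0192), Bcl3 (-0.77, SE 0.27, adjusted p = 0.0434) and Traf1 (-0.87, SE 0.13, adjusted p = 8e-05) were lower. Nfkbie was thus lower in the spleen than in culture among NFKBIE-wt samples and higher among NFKBIE-ko samples (0.89, SE 0.20, adjusted p = 0.002, in the same fit), and the test of this difference is the 1.67 given above.

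In the NFKBIE-wt PC against spleen, Nfkbib was lower in the PC (-0.46, SE 0.10, edgeR adjusted p = 0.00224) and Bcl3 higher (0.64, SE 0.24, adjusted p = 0.0419), 2 members where 35.5% of all genes passed. The Bcl3 call was lost without any 1 of NFKBIE-wt spleen replicates 2 and 3, NFKBIE-wt PC replicates 1 and 4 and the NFKBIE-ko cultures (0.49 to 0.65, adjusted p 0.0502 to 0.125). Without both libraries Tnfaip3 also passed (-0.87, SE 0.19, adjusted p = 0.00191), where 38.9% of all genes did. Against culture, 3 members passed in the NFKBIE-wt PC (34.1% of all genes): Nfkbia (0.76, SE 0.26, adjusted p = 0.0293), Nfkbib (-0.38, SE 0.11, adjusted p = 0.014) and Tnip1 (-0.41, SE 0.13, adjusted p = 0.016). Each of these calls was lost without 1 library or another, Nfkbia without NFKBIE-wt PC replicate 2 or vitro replicate 1 or 2 (0.59 to 0.62, adjusted p 0.0865 to 0.14), Nfkbib without PC replicate 1 or vitro replicate 3 (-0.33 and -0.28), and Tnip1 without PC replicate 4 or vitro replicate 3 (-0.35 and -0.34). Without both libraries 6 members passed (42.9% of all genes), among them Nfkbia (1.21, SE 0.16, adjusted p = 1.23e-05), Traf1 (-0.63, SE 0.12, adjusted p = 0.000421) and Nfkbie (-0.65, SE 0.22, adjusted p = 0.0222).

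The genes around the members are read against the shares of all genes given above, 5.43% in the spleen and 43.4% in the PC (22.5% higher and 20.9% lower). The NF-κB subunits Nfkb1 and Nfkb2, whose precursors also act as IκB proteins, rose in the PC, by 0.40 (SE 0.08, edgeR adjusted p = 0.00267) and 0.87 (SE 0.09, adjusted p = 3.38e-05), and the other 3 subunits did not pass. In the spleen 0 of 5 passed with all libraries, with 2 at an unadjusted p under 0.05, and without the library labelled replicate 4 the same genes passed (Nfkb1 0.51, adjusted p = 0.0346, and Nfkb2 1.19, adjusted p = 0.00225). Of 11 genes of the IκB kinase and its activators, Ikbke (0.99, adjusted p = 0.00507) and Tank (0.44, adjusted p = 0.0366) rose in the spleen. In the PC 2 of the 11 rose and 3 fell, near the share of all genes, with Ikbke, an IκB kinase-related enzyme, changed most (1.21, SE 0.19, adjusted p = 0.000608). Of 7 genes that ubiquitinate and degrade IκB, 0 passed in the spleen by edgeR (1 at an unadjusted p under 0.05), and 1 rose and 2 fell in the PC, again near that share.

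Of 7 non-canonical pathway genes, the receptor gene Cd40 rose in the spleen (1.36, SE 0.32, edgeR adjusted p = 0.041). In the PC 4 rose, among them Cd40 (1.06, adjusted p = 0.000418) and Ltbr (1.07, adjusted p = 0.0131), and Map3k14, the kinase that starts the pathway, fell (-0.85, SE 0.07, adjusted p = 6.58e-06). Other negative regulators showed 1 of 15 tested higher in the spleen, Irak3, an inhibitor of Toll-like receptor signaling (1.82, SE 0.35, adjusted p = 0.0232). In the PC 4 of 16 rose and 1 fell, a smaller share than of all genes, with Irak3 (2.08, SE 0.14, adjusted p = 2.01e-06) and Tnip3 (1.09, adjusted p = 0.0259) up and Tnip2 (-0.56, adjusted p = 0.00493) down. Irak3 is also expressed by myeloid cells, whose markers are given above. The part of host cells in the values of Irak3, Cd40, Ltbr and the other genes of these lists was not tested. Of 20 B-cell NF-κB targets, 4 rose and 1 fell in the spleen, and 9 rose and 2 fell there without the library labelled replicate 4 (12.2% of all genes passed). In the PC 12 of the 20 rose and 2 fell, where 22.5% of all genes were higher and 20.9% lower. Against the direction of most targets that passed, Il2ra fell in the spleen (-2.42, edgeR adjusted p = 0.00677) and in the PC (-2.36, adjusted p = 1.45e-06). In vitro no gene of these lists passed.

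Over the 22 samples, the genes whose log2 level followed that of Nfkbie most closely among 13537 were Tnfrsf19 (Pearson r = 0.811), Wnt10b (0.807) and Hbs1l (0.742). Among the members the closest was Nfkbid (0.623), and Nfkbia was at -0.044 and Traf1 at -0.070. The order depended on the differences between groups. When each sample was taken as its deviation from the mean of its group, Traf1 was closest (0.840), followed by Nfkbid (0.715), and Nfkbia (-0.596) and Tnfaip3 (-0.609) ran against Nfkbie. These samples include the libraries that stood apart. The library labelled NFKBIE-wt spleen replicate 4 was the highest of its group in Nfkbie (124 CPM) and Traf1 (38.6 CPM). That labelled NFKBIE-wt vitro replicate 3 was the lowest of its group in both (54.3 and 20.6 CPM). In Nfkbia and Tnfaip3 the order was the reverse. Correlations without these libraries were not computed, and the values are a description.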

How the data were processed

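RNA-seq of 22 samples was analysed. The authors deposited estimated counts (expected counts) per transcript, made from paired-end reads by Salmon 1.8 with a GRCm39 index and not normalized. CASAVA and DESeq2 are also named in the submitters' processing notes. The table held 62492 transcripts, each above 0 in at least 5 samples. Of these, 62147 matched GENCODE mouse M39 (17023 genes), and the unmatched held 0.619% of the counts. As 69.5% of the values were not whole, sums per gene were rounded.

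The members, gene lists and tests were chosen with earlier results of these data known. All members were named in every comparison, and from each other list at most 4 genes per genotype comparison, those called with the largest absolute log2 fold change. The 3 genes nearest to Nfkbie were taken by Pearson correlation.

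Genotypes were tested per compartment, on 12221 (spleen), 12642 (PC) and 11722 (in vitro) genes, and compartments and differences between them on all 22 samples (13537 genes), with edgeR 4.0.16 (low-count filter, TMM, robust quasi-likelihood fits, R 4.3.3). A gene passed at a Benjamini-Hochberg adjusted p below 0.05. CPM used TMM library sizes, and TPM were computed from annotated lengths. Transcript shares were tested with exact permutation tests (scipy 1.17.1). The fits were run on simulated data with planted changes larger than any genotype effect on a member given here, so smaller changes were not examined. DESeq2 1.42.0, other scaling and filters, coding transcripts alone, a replicate block, a joint fit and each library left out were alternatives. Replicate pairs differed beyond sampling noise. Promoter and target sequences were read from GRCm39.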

Additional observations from a re-analysis of the deposited data

Results flagged for a closer look

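Of 44 groups of member levels or Nfkbie retained-intron shares tested for a sample far from the others, 2 had one, and chance alone gives about 1 in 20. Nfkbie was at 124 CPM in the library labelled NFKBIE-wt spleen replicate 4, against 70.9 to 76.9 CPM in the other 3, a gap of 0.887 of the whole range. This library also stood apart over the most variable genes. Tnfaip3 was at 156 CPM in NFKBIE-ko PC replicate 1, against 90.9 to 93.4 CPM in the other 3 (0.961 of the range). The same sample was also the highest NFKBIE-ko PC sample in Nfkbid and Nfkbiz. Causes were not tested.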

How the results depend on the processing

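Of 75 alternative values of the member counts and transcript shares, 62 stayed within 1.5 times the reported value or on the same side of the threshold. The others were counts of members that passed. In the spleen (1 as reported) they were 4 with DESeq2, 0 with the replicate block and 2 in the fit of all 22 samples. In the PC (5) and in vitro (0) the fit of all 22 samples gave 3 and 1. For differences between compartments (0), DESeq2 gave 1 for spleen minus in vitro and 1 for PC minus in vitro, and leaving out both libraries that stood apart gave 1 for spleen minus PC and 1 for spleen minus in vitro. Without both, NFKBIE-wt spleen against culture moved from 0 to 6, NFKBIE-wt PC against culture from 3 to 6, and NFKBIE-ko spleen against culture from 5 to 8. With coding transcripts alone and all libraries kept, Nfkbie in the spleen (-0.05) and Bcl3 in the PC (-0.01) changed sign. The fit of all 22 samples took the PC calls of Nfkbie (-0.55, edgeR adjusted p = 0.134) and Nfkbia (-0.33, adjusted p = 0.331). The causes were not tested.

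Same-numbered samples of the genotypes did not deviate together (correlations -0.264 to 0.137 in the spleen, -0.124 to -0.00309 in the PC and -0.0181 to 0.085 in vitro), so the numbers did not pair the genotypes. Spleen and PC samples of a genotype came from the same group of 5 recipients and can share mice, which the labels do not tie to samples. Their same-numbered deviations correlated at -0.15 to 0.0897 in NFKBIE-wt and at -0.0407 to 0.107 in NFKBIE-ko samples, and the comparisons of these compartments took them as independent. With the replicate number as a block, calls were lost for Nfkbid in the spleen (0.75, adjusted p = 0.0958), Nfkbia in the PC (-0.33, adjusted p = 0.0912), Bcl3 in NFKBIE-wt PC against spleen (0.64, adjusted p = 0.0603, leaving 1 of 2 members) and Nfkbie in NFKBIE-ko spleen against culture (0.78, adjusted p = 0.0581).

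With 1 library left out, the members that passed numbered 0 to 4 in the spleen, 4 to 7 in the PC, 0 to 2 in vitro and 0 to 1 for each difference between compartments. For NFKBIE-wt they numbered 1 to 3 (PC against spleen), 2 to 4 (PC against culture) and 0 to 3 (spleen against culture), and for NFKBIE-ko 4 to 5, 1 to 4 and 4 to 6. The retained-intron difference ranged over 11.6 to 14.9 points in the spleen, 16.2 to 21.3 in the PC and 12.3 to 16.5 in vitro. Signs changed within the range for Bcl3 in the PC (-0.10 to 0.12) and, in vitro, for Nfkbid (-0.20 to 0.59), Tnip1 (-0.02 to 0.11), Nfkbia (-0.40 to 0.20), Bcl3 (-0.01 to 0.66) and Tnfaip3 (-0.82 to 0.29). The planned share of Nfkbie counts on transcripts with the target was constant and was not run.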
